A study of Mus musculus with 42 samples.

Results

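The cells described here are the d3 G+ and d3 G- populations, the first time point at which the differentiating cultures were split by the Gsc reporter. They were chosen by their labels and make up 6 of the 42 arrays of the series, with 3 arrays per population. Both came from HRS/Gsc-GFP dual reporter mouse embryonic stem cells, a single line with GFP reporting Gsc and RedStar reporting Hhex. The cells were grown in ESC medium with LIF and taken through the monolayer protocol for anterior definitive endoderm (ADE) in T75 flasks. The protocol supplies cytokines and growth factors in a timed order. At day 3 the cells were sorted into Gsc-positive (G+) and Gsc-negative (G-) cells, without the EZH2 inhibitor used in other cultures of the series. Unsorted d2 cells of the same line and protocol (3 arrays) were measured the day before, and d4 G+ and d4 G- cells (3 arrays each) the day after. As all groups carry the same reporter alleles, what the alleles themselves do cannot be read from these comparisons. Each population is defined by a gate on fluorescence, so a G+ or G- sample may hold several cell types. In such bulk RNA, fewer cells of a type and less RNA per cell cannot be told apart.

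In the gastrulating embryo, epiblast cells that receive Nodal, Wnt and BMP signals form the primitive streak, lose their epithelial junctions and move out as mesoderm or definitive endoderm. Gsc encodes a homeodomain protein of the anterior streak and organizer, and its neighbours in this programme are T-box, GATA, LIM homeodomain and Mesp transcription factors. Cells leaving the epiblast shut down the pluripotency network in an ordered way, with naive factors lost before the general ones. The comparison of G+ with G- cells asks how far this programme separated the 2 populations sorted on the same day.

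Values are log2 fluorescence intensities after background correction and quantile normalisation, and differences are log2 differences with the standard error (SE) from limma. Calls needed a log2 difference of 1.5 or more in size, which is 2.83-fold, with an adjusted p no higher than 0.01. Of 22201 RefSeq genes, 160 were higher in d3 G+ than in d3 G- cells (0.721%) and 233 were lower (1.05%). The median log2 difference over all gene symbols was 0.02, and 5% to 95% of them lay between -0.74 and 0.64. The labels do not say that replicates came from separate cultures, though the paper calls the 3 replicates of these expression data independent experiments. The p values measure the spread between samples of the same group, pooled for each probe over all groups of the series. They do not rest on the d3 arrays alone. In a fit to the compared groups alone, 118 genes were higher and 138 lower. Probes well above background numbered 30195 to 39603 on the G- arrays and 26532 to 37897 on the G+ arrays, both replicates 3 having the most. The third G+ array stood nearer to the third G- array (a distance of 97.7 over all probes) than to the other G+ arrays (109.5 and 111.3), whereas the third G- array stood nearest to the second G- array (92.2). Replicates 2 and replicates 3 each shared a slide. Within those slides, 159 and 160 of the 160 higher genes kept their direction (median 2.42 and 2.16), as did 231 and 230 of the 233 lower genes (median -2.26 and -1.97). As these arrays were among those that made the calls, this is a description and no test. With slide as a fixed block the counts were 193 higher and 242 lower. The part of array depth was not tested.

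Gsc itself, the gene behind the sort, read 7.89, 8.15 and 8.79 on the G- arrays and 11.34, 12.11 and 12.01 on the G+ arrays. The groups did not overlap, with a log2 difference of 3.55 (SE 0.47, adjusted p = 4.12e-06). This checks the labels and is no result of the sort. The G- cells were also above the d2 cells, which averaged 5.19, by 3.09.

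Of 15 transcription factors of the primitive streak, 7 were called higher in G+ and 0 lower, with a median log2 difference of 1.85. Gsc, the sorted gene, is among the 7 and in the median, so its part in both was set by the sort. Over all gene symbols, by which lists were counted, 0.73% were called higher and 1.08% lower. Lists here and below were chosen with earlier results of these data known. Their counts beside the shares of all genes are therefore descriptions and no test. Mesp1, a bHLH factor of nascent mesoderm and the earliest cardiovascular progenitors, read 7.56, 8.48 and 8.74 in G- and 12.48, 13.49 and 13.68 in G+ cells. Its difference of 4.96 (SE 0.72, adjusted p = 1.63e-05) was the largest of all called genes, and every G+ array lay above every G- array. The adjoining paralogue Mesp2, which acts in somite segmentation, read 6.12, 6.51 and 6.42 in G- and 8.52, 9.82 and 9.83 in G+ cells (3.04, SE 0.34, adjusted p = 1.87e-07). The pair differed in the G- cells: Mesp1 was above d2 there by 3.26 and called, whereas Mesp2 was 0.18 below d2 (-0.18) and was not called.

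The windows around the start of Gsc, Mesp1 and Mesp2 are shown because Gsc is the sorted gene, Mesp1 had the largest difference and Mesp2 is its neighbour. They run from 250 bases before to 50 bases after the RefSeq start in GRCm38.p6, on the gene's own strand, at chr12:104473187-104473486 (minus strand), chr7:79793541-79793840 (minus) and chr7:79810477-79810776 (plus). Capitals mark the letters of 7 short motifs searched on both strands. These are AGATAA for the zinc finger factors of the Gata family, TAATCC for homeodomain proteins of the bicoid type such as Gsc, GGTGTGA for T-box factors, ATCCACA for the forkhead factor Foxh1, CTTTGAT for the TCF/LEF factors of the Wnt pathway, ATGCAAA for the octamer of POU factors, and AAGGTCA for the orphan receptor Esrrb. The bicoid and Foxh1 letters share ATCC and can overlap.
Gsc: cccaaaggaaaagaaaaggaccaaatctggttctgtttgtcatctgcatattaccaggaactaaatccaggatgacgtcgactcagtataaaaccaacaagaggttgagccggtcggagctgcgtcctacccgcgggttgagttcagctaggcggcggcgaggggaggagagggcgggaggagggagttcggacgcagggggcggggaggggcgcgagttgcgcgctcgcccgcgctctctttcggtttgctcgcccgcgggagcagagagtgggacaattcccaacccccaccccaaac
Mesp1: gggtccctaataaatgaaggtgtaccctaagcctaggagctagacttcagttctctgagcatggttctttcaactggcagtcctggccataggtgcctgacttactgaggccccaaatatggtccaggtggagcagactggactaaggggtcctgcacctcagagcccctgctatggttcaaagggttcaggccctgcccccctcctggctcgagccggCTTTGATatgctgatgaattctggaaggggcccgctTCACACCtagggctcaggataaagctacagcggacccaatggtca
Mesp2: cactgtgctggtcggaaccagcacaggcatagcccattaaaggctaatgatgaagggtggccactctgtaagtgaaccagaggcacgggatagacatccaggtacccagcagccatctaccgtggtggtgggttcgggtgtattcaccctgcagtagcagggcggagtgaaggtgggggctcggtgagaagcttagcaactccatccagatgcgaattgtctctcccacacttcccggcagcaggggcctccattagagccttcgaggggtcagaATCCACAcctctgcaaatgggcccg
The Mesp1 window held TCF/LEF letters and, further downstream, T-box letters on the opposite strand, the Mesp2 window held Foxh1 letters, and the Gsc window held none of the 7. Over all 32851 windows of the table, 3.73% held the TCF/LEF, 3.98% the T-box and 3.38% the Foxh1 letters. A match is a description and not a site.

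Mixl1, a paired type homeodomain factor of mesendoderm, read 8.08, 7.81 and 7.40 in G- and 10.89, 11.30 and 10.88 in G+ cells (3.26, SE 0.34, adjusted p = 4.95e-08). Lhx1, a LIM homeodomain factor of the anterior streak and node, was nearly level across G- arrays at 7.17, 7.43 and 7.33 and read 9.91, 11.94 and 11.55 in G+ cells (3.82, SE 0.47, adjusted p = 1.05e-06). The first G+ replicate was the lowest of its group for Lhx1, as it was for Gsc, Mesp1 and Mesp2, yet stayed clear of the G- arrays for each. Eomes, the T-box factor needed for definitive endoderm and cardiac mesoderm, was already 2.13 above d2 in G- cells and read 11.12, 11.60 and 12.19 there against 13.40, 14.30 and 14.36 in G+ cells (2.38, SE 0.33, adjusted p = 7.82e-06). Tbx6, a T-box factor of paraxial mesoderm, read 8.35, 7.71 and 7.02 in G- and 9.99, 10.35 and 9.32 in G+ cells (2.20, SE 0.37, adjusted p = 1.79e-04). Fitted to the compared groups alone, Eomes (adjusted p = 0.0113) and Tbx6 (0.0224) were not called.

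**Figure D1:**
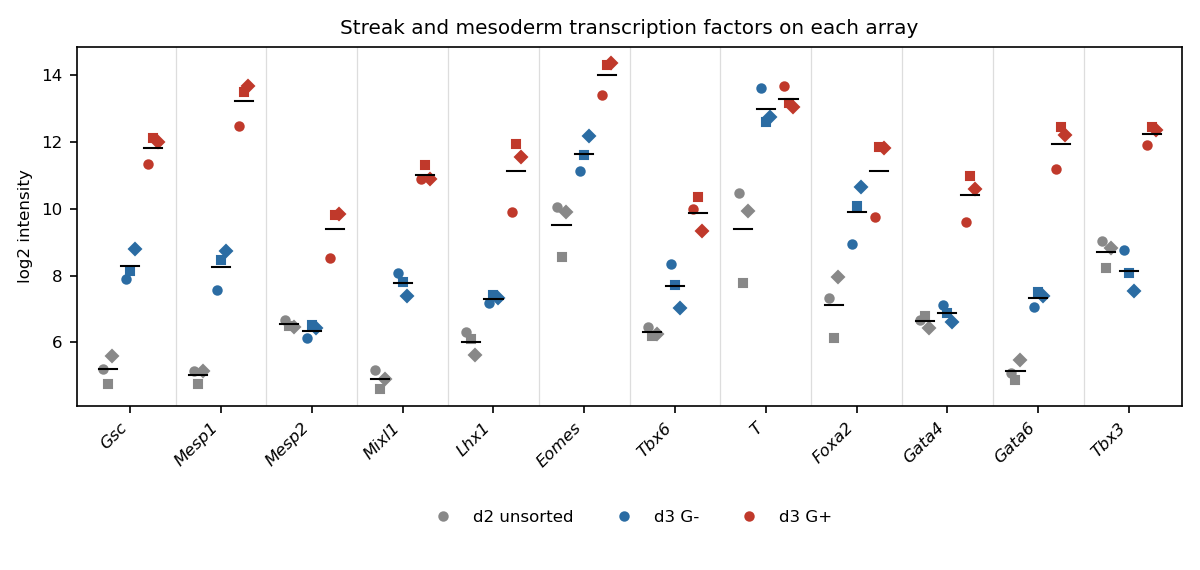
The log2 intensity of 12 transcription factor genes on each array of d2 (grey), d3 G- (blue) and d3 G+ (red) cells, with replicates 1, 2 and 3 as circle, square and diamond and the mean as a black bar. Gsc, Mesp1, Mesp2, Mixl1, Lhx1, Eomes, Tbx6, Gata4, Gata6 and Tbx3 are higher on every G+ array than on every G- array, while T and Foxa2 overlap.

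Members of the same list that are equally known for the streak did not pass. T (brachyury), the T-box factor of the whole streak, read 13.62, 12.61 and 12.75 in G- and 13.69, 13.16 and 13.04 in G+ cells. These ranges overlapped, with a difference of 0.31 (SE 0.50, adjusted p = 0.981), and both populations were far above the d2 mean of 9.39. Foxa2, a forkhead factor of the anterior streak and endoderm, read 8.95, 10.09 and 10.65 in G- and 9.75, 11.85 and 11.81 in G+ cells, again overlapping (1.24, SE 0.63, adjusted p = 0.437). Each G+ array of T and Foxa2 was above the G- array of its own number, but neither gene was called with the replicate number as a block. For the posterior streak gene Evx1 the difference was 1.85 (adjusted p = 0.0247), and for the Wnt target Sp5 it was 1.80 (adjusted p = 0.0873). Sox17, a defining factor of definitive endoderm, read 5.78, 5.60 and 5.33 in G- and 5.49, 7.99 and 6.47 in G+ cells (1.08, adjusted p = 0.199), with the first G+ array inside the G- range. Hhex, the gene of the second reporter and a marker of anterior endoderm, differed by 0.55 (adjusted p = 0.73).

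Regulators of cardiac and lateral mesoderm formed the second group. Of 22, 6 were called higher in G+ and 0 lower (median 1.71), and 17 of the 22 had non-overlapping arrays with G+ above, against 10.5% of all gene symbols. Gata6, a zinc finger factor of endoderm and heart, read 7.07, 7.51 and 7.40 in G- and 11.20, 12.45 and 12.21 in G+ cells (4.63, SE 0.33, adjusted p = 1.03e-10). Its relative Gata4 was at the d2 level in G- cells at 7.13, 6.88 and 6.62 and read 9.61, 10.99 and 10.60 in G+ cells (3.52, SE 0.47, adjusted p = 5e-06). Both GATA factors were thus separated by more than the whole spread within either population. Pdgfra, the receptor for platelet-derived growth factor that marks nascent mesoderm, read 6.18, 6.20 and 6.50 in G- and 9.52, 10.91 and 11.13 in G+ cells (4.23, SE 0.45, adjusted p = 1.01e-07). Tbx3, which stands in both the mesoderm and the naive pluripotency list, read 8.76, 8.08 and 7.55 in G- and 11.92, 12.44 and 12.36 in G+ cells (4.11, SE 0.71, adjusted p = 2.12e-04), the opposite direction to every other called member of the naive list.

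Kdr, the VEGF receptor of the earliest vascular and cardiac progenitors, gave discordant probes. The dimmer probe read 6.36, 6.46 and 5.90 in G- and 9.78, 11.28 and 10.75 in G+ cells (4.36, SE 0.81, adjusted p = 5.33e-04). On the brighter probe the arrays overlapped at 11.17, 10.39 and 10.92 against 10.86, 10.68 and 11.16 (0.08, SE 0.20, adjusted p = 0.999), so the call of Kdr rests on the dimmer probe. The bHLH factor Hand1 of lateral and extraembryonic mesoderm read 7.18, 6.86 and 5.92 in G- and 9.99, 9.64 and 10.03 in G+ cells. Its groups did not overlap but the difference of 3.23 (SE 0.82) had an adjusted p of 0.0151 and was not called. With the replicate number as a block, Hand1 (adjusted p = 0.00309), the lateral mesoderm factor Foxf1 (2.89, from 0.018 to 0.00911) and the BMP target Msx2 (2.58, from 0.0147 to 0.00595) passed. Later cardiac factors gave small values, at 0.41 for Nkx2-5, 0.45 for Tbx5 and 0.12 for Mef2c, none of them called.

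Of 14 blood and vessel genes, 2 were called higher and 0 lower, namely Kdr and Gata2, and the median difference was 0.00. Gata2, a zinc finger factor of blood progenitors, read 6.40, 6.36 and 5.84 in G- and 7.79, 7.95 and 8.08 in G+ cells (1.74, SE 0.41, adjusted p = 0.00751). The groups did not overlap, yet the call of Gata2 was lost without any 1 of the 6 arrays, with adjusted p from 0.0152 to 0.0507. Tal1, the master factor of blood commitment, differed by -0.46 and the erythroid factor Gata1 by -0.09. In the trophoblast list, 1 of 10 was called, the zinc finger factor Gata3, at 7.74, 7.04 and 6.51 in G- and 10.05, 9.41 and 9.34 in G+ cells (2.51, SE 0.54, adjusted p = 0.00327). That call was lost without d3 G+ replicate 1 or 2 or d3 G- replicate 2 or 3, with adjusted p from 0.0123 to 0.0311. Visceral endoderm is another cell type that such cultures could hold. In its list of 12 genes, of which 7 were well above background on some d3 array, 0 were higher and 1 was lower (Rhox5), and the defining markers Ttr, Afp and Apoa1 were not well above background on any d3 array. Rhox5, an X-linked homeobox gene, read 12.56, 12.16 and 10.70 in G- and 10.72, 10.36 and 9.18 in G+ cells (-1.72, SE 0.41, adjusted p = 0.00837), and its ranges overlapped at the third G- array. It lost the call without d3 G+ replicate 2 or 3 or d3 G- replicate 1 or 2, with adjusted p from 0.0194 to 0.117.

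Of 15 mesenchymal genes 3 were higher and 0 lower (median 1.21), and of 16 epithelial genes 0 were higher and 1 lower (median -1.25). Snai1, the zinc finger repressor of Cdh1 that drives the epithelial-mesenchymal transition, read 9.51, 9.30 and 9.55 in G- and 11.67, 12.38 and 12.65 in G+ cells (2.78, SE 0.34, adjusted p = 8.89e-07). Cdh2 (N-cadherin), the cadherin that replaces E-cadherin in mesoderm, read 12.74, 11.97 and 12.05 in G- and 14.20, 13.85 and 14.04 in G+ cells (1.77, SE 0.21, adjusted p = 7.26e-07). Both genes were already above d2 in the G- cells, Snai1 by 2.17 and Cdh2 by 1.75, and both passed the thresholds there. Cdh11, a mesenchymal cadherin, read 6.27, 6.03 and 5.86 in G- and 8.78, 9.50 and 9.51 in G+ cells (3.21, SE 0.56, adjusted p = 2.34e-04). Twist1 missed the fold threshold at 1.49 with an adjusted p of 1.3e-05. Fn1 (fibronectin) missed the p threshold at 1.75 (adjusted p = 0.0113) and passed with the replicate block (adjusted p = 3.57e-05).

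On the epithelial side, Grhl2, a grainyhead factor that maintains epithelial junctions, read 10.00, 10.91 and 10.86 in G- and 8.28, 7.97 and 7.74 in G+ cells (-2.59, SE 0.35, adjusted p = 4.26e-06). Its relatives Grhl1 (-1.89, SE 0.23, adjusted p = 9.86e-07) and Grhl3 (-1.65, SE 0.36, adjusted p = 0.00364), named after their values were seen, were also called lower. Cdh1 (E-cadherin) read 12.19, 12.34 and 12.49 in G- and 11.29, 10.81 and 11.04 in G+ cells. It did not pass at d3 (-1.29, SE 0.44, adjusted p = 0.104) although its groups did not overlap, and the d4 difference of -2.04 was called. Altogether 11 of the 16 epithelial genes had every G+ array below every G- array, against 12% of all gene symbols. Junction genes outside the list, also picked after their values were seen, were called lower: Cgn (cingulin, -1.9), Tjp3 (-1.89), Marveld3 (-1.75), Cldn5 (-2.03), Jam2 (-2.05) and Esam (-1.67). Keratins of simple epithelia differed little, with Krt8 at 0.55 and Krt18 at 0.24.

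Of 12 measured migration genes, 4 were higher and 1 lower. Cxcr4, the chemokine receptor used to mark definitive endoderm, read 6.28, 5.46 and 5.38 in G- and 7.48, 9.05 and 8.38 in G+ cells (2.60, SE 0.40, adjusted p = 4.49e-05), a call lost in a fit to the compared groups alone (adjusted p = 0.0161). Its ligand Cxcl12 went the other way, at 11.50, 11.03 and 10.90 in G- and 10.01, 9.02 and 9.08 in G+ cells (-1.77, SE 0.37, adjusted p = 0.00197). The receptor and the ligand were each separated without overlap, but Cxcl12 lost the call without d3 G+ replicate 2 or 3 or d3 G- replicate 1 (adjusted p from 0.0181 to 0.025). Aplnr, the apelin receptor of migrating mesoderm, differed by 2.28 (SE 0.28, adjusted p = 9.04e-07). Itga5, the fibronectin receptor subunit, differed by 1.71 (adjusted p = 0.00107) and lost the call without d3 G+ replicate 2 or d3 G- replicate 3 (adjusted p = 0.0153 and 0.0209). Among guidance genes picked after their values were seen, the semaphorin receptors Plxna4 (3.04), Plxna2 (2.59) and Nrp1 (2.26) and the ephrin Efnb3 (2.03) were called higher, and Sema4d (-1.65) and Epha8 (-1.76) lower.

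**Figure D2:**
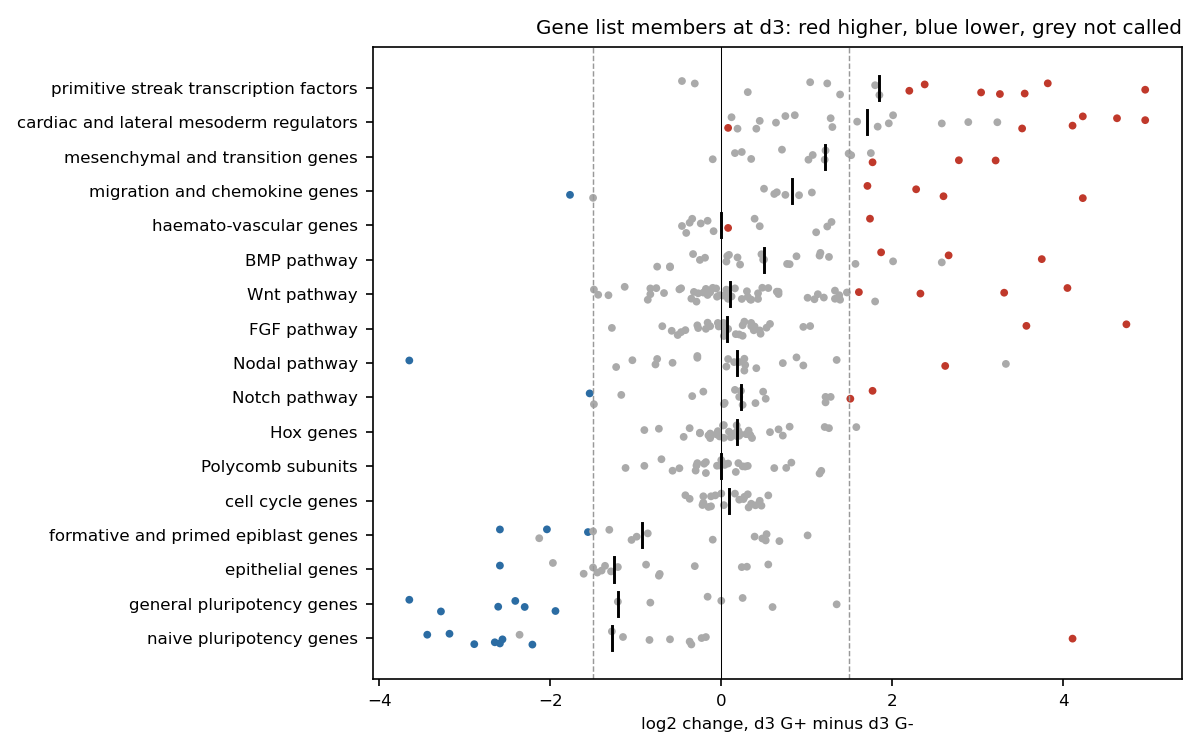
The log2 difference between d3 G+ and d3 G- cells (horizontal axis) for each member of 17 gene lists (rows), red where called higher, blue where called lower and grey where not called, with the list median as a black bar and dashed lines at the fold threshold of 1.5. The medians run from 1.85 for the streak factors, which include Gsc, to -1.28 for the naive pluripotency genes. Those of the Hox (0.18), Polycomb (0.00) and cell cycle (0.10) lists lie near 0. Kdr is drawn at the value of its brighter probe.

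Ligands, receptors and inhibitors of the signalling pathways were counted by role. In the Nodal pathway 1 of 22 genes was higher and 1 lower. Nodal, the ligand that induces mesendoderm, differed by -0.28 (adjusted p = 0.755). The related ligand Gdf3 read 11.84, 12.54 and 12.57 in G- and 9.45, 8.16 and 8.39 in G+ cells (-3.65, SE 0.52, adjusted p = 1.25e-05). Of the EGF-CFC co-receptors, Cfc1 (Cryptic) read 7.30, 7.86 and 7.09 in G- and 9.67, 10.44 and 9.99 in G+ cells (2.62, SE 0.38, adjusted p = 1.56e-05), whereas Tdgf1 (Cripto) differed by 1.35 (adjusted p = 0.156). The secreted inhibitor Cer1, a marker of anterior endoderm, read 5.41, 5.31 and 5.30 in G-, where 1 array was well above background, and 6.96, 9.85 and 9.20 in G+ cells. Its difference of 3.33 (SE 0.86) was not called (adjusted p = 0.0165), and was called without d3 G+ replicate 1, the lowest G+ array (4.18, adjusted p = 0.00407). With every d3 array kept, Cer1 was called with slide as a fixed block in limma (adjusted p = 0.00771). It was not called with the replicate number as a block (adjusted p = 0.0139). Lefty1 and Lefty2, feedback inhibitors of Nodal, differed by -0.57 and 0.41 and were not called.

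In the Wnt pathway 4 of 58 genes were higher and 0 lower, with a median of 0.10. Wnt3, the ligand that initiates the streak, differed by 1.20 (adjusted p = 0.203). Wnt5a, a non-canonical ligand of elongating mesoderm, read 9.16, 9.39 and 9.65 in G- and 12.17, 11.18 and 11.84 in G+ cells (2.33, SE 0.47, adjusted p = 0.0016). It lost the call without d3 G+ replicate 1 or 3 or d3 G- replicate 1 or 2 (adjusted p from 0.0101 to 0.0151) and with replicates 2 and 3 alone (adjusted p = 0.164). Fzd1, a Wnt receptor, differed by 1.61 (adjusted p = 0.000869) and lost the call without d3 G+ replicate 3 (1.48) or d3 G- replicate 3 (1.46). The secreted antagonists split. Frzb read 5.47, 5.97 and 6.23 in G- and 8.94, 10.55 and 10.33 in G+ cells (4.05, SE 0.48, adjusted p = 4.67e-07). Dkk1, which blocks the Lrp co-receptors, read 7.52, 6.54 and 6.04 in G- and 10.43, 10.21 and 9.41 in G+ cells (3.31, SE 0.57, adjusted p = 1.97e-04). Sfrp2 (-1.44, adjusted p = 3.59e-05) and Sfrp4 (-1.49, adjusted p = 0.00441) lay the other way, just short of the fold threshold, so that the 12 antagonists had a median of -0.24. The 9 target genes of the list had a median of 0.55 with 0 called, Axin2 lying at 0.43.

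In the BMP pathway 3 of 26 genes were higher and 0 lower (median 0.50). Bmp2 read 8.28, 7.04 and 6.79 in G- and 10.30, 10.29 and 9.51 in G+ cells (2.66, SE 0.39, adjusted p = 1.84e-05), a call lost in a fit to the compared groups alone (adjusted p = 0.0139). Bmp4, the ligand of posterior streak and extraembryonic mesoderm, read 12.63, 11.52 and 11.09 in G- and 13.90, 12.68 and 12.16 in G+ cells and overlapped (1.16, adjusted p = 0.571). Each G+ array of Bmp4 was nevertheless above the G- array of its own number. With the replicate number as a block in limma, Bmp4 was still not called (adjusted p = 0.372). Bmper, an extracellular BMP modulator, read 7.52, 6.73 and 6.75 in G- and 10.72, 10.86 and 10.66 in G+ cells (3.75, SE 0.48, adjusted p = 1.83e-06). Id1, an immediate target of BMP receptors, read 10.63, 9.49 and 9.88 in G- and 11.70, 11.72 and 12.20 in G+ cells (1.87, SE 0.41, adjusted p = 0.00376). The G+ level of Id1 was close to that of d2 (difference -0.10), and it was the G- cells that were called below d2 (-1.97). The call of Id1 between the d3 populations was lost without d3 G+ replicate 2 or 3 or d3 G- replicate 2 or 3, with adjusted p from 0.0138 to 0.0473. The 8 targets of the list had a median of 1.42.

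**Figure D3:**
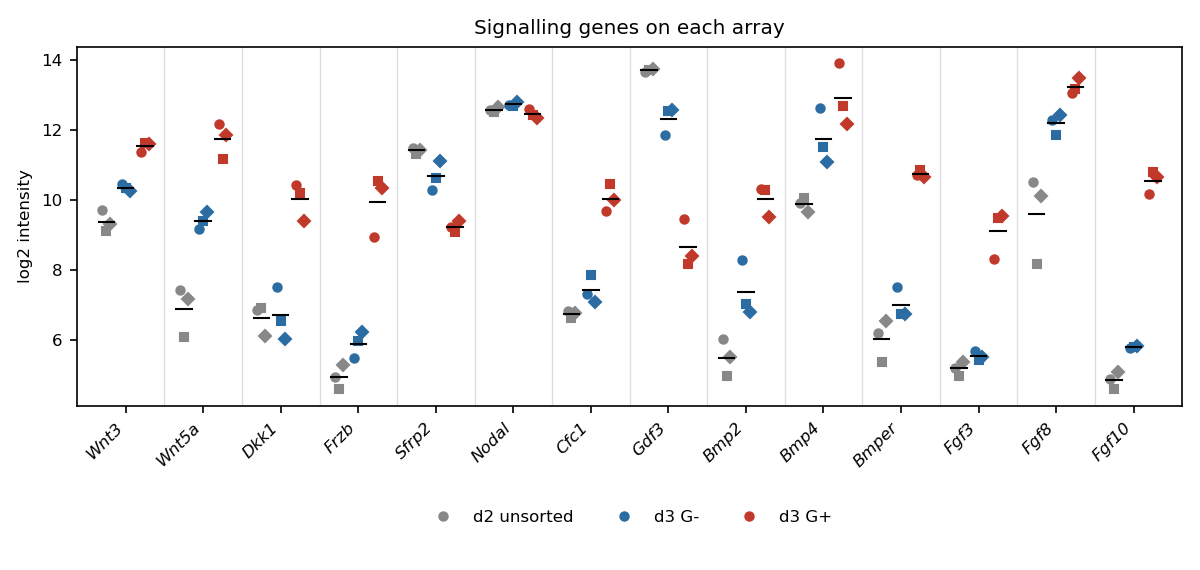
The log2 intensity of 14 genes of the Wnt, Nodal, BMP and FGF pathways on each array of d2 (grey), d3 G- (blue) and d3 G+ (red) cells, with replicates 1, 2 and 3 as circle, square and diamond and the mean as a black bar. Dkk1, Frzb, Cfc1, Bmper, Fgf3 and Fgf10 are not called above d2 in G- cells and are higher on all G+ arrays, whereas Bmp4 overlaps and Nodal stays between 12.35 and 12.79 on the d3 arrays.

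FGF ligands gave 2 of the highest values. Fgf10, a ligand of heart field and limb mesoderm, was at 5.77, 5.81 and 5.82 in G- and at 10.18, 10.79 and 10.65 in G+ cells (4.74, SE 0.36, adjusted p = 3.46e-10). Fgf3 was at 5.67, 5.44 and 5.52 in G- and at 8.31, 9.48 and 9.54 in G+ cells (3.57, SE 0.53, adjusted p = 2.32e-05). Neither gene was called above d2 in the G- cells. Fgf8, the ligand needed for cells to leave the streak, differed by 1.04 (adjusted p = 0.118), Fgf5, an epiblast ligand, by 0.53, and Fgf4, a ligand of pluripotent cells, by -1.28 (adjusted p = 0.0973). The 22 ligands, 4 receptors and 10 targets of the list had medians of 0.06, 0.19 and -0.05. The Fgf3 window (chr7:144838362-144838661, plus strand, GRCm38.p6) is shown because it holds GATA letters, read on the opposite strand, beside the calls of Gata4 and Gata6.
Fgf3: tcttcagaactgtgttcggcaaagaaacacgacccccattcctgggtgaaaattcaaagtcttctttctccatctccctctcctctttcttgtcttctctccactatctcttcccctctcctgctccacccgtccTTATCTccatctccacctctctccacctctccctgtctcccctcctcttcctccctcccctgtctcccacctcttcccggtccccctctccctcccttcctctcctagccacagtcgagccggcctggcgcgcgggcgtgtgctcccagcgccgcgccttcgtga
GATA letters were in 11.2% of the windows of the 116 higher genes that had one, in 8.48% for the 165 lower genes and in 11% for the 16601 measured genes, so the share among higher genes was near that of all genes.

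Of 19 Notch genes 2 were higher and 1 lower. The ligand Dll3 differed by 1.77 (adjusted p = 0.00158), the feedback inhibitor Nrarp by 1.51 (adjusted p = 0.0003) and the target Hes5 by -1.54 (adjusted p = 0.000233). These were small calls: Dll3 lost its call without d3 G+ replicate 2 or 3 (adjusted p = 0.0184 and 0.0143). Without d3 G+ replicate 1 or 2 or d3 G- replicate 2 or 3, Nrarp (1.41 to 1.47) and Hes5 (-1.43 to -1.40) stayed short of the fold threshold. Hes5 was well above background on 1 of the 3 G+ arrays. In the retinoic acid list 1 of 15 was called, Cyp26a1, the enzyme that clears retinoic acid from the streak. It read 9.94, 9.80 and 9.36 in G- and 12.89, 13.88 and 13.41 in G+ cells (3.70, SE 0.29, adjusted p = 3.9e-10), and was above d2 in both populations, by 3.10 and 6.80. Its relative Cyp26b1 differed by 1.34 (adjusted p = 0.0012), under the fold threshold.

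Of 17 naive pluripotency genes 7 were lower and 1 (Tbx3) higher, with a median of -1.28. Of 13 general pluripotency genes 6 were lower and 0 higher, with a median of -1.21. Klf2, a Krüppel-like factor of naive cells, read 10.87, 11.13 and 10.00 in G- and 8.05, 7.44 and 6.96 in G+ cells (-3.18, SE 0.42, adjusted p = 3.35e-06). Tcl1, an Akt co-activator, read 9.05, 9.89 and 8.60 in G- and 5.92, 5.93 and 5.39 in G+ cells (-3.44, SE 0.34, adjusted p = 2.46e-08). The orphan receptor gene Nr5a2 read 9.70, 10.40 and 9.13 in G- and 7.36, 6.89 and 6.30 in G+ cells (-2.89, SE 0.33, adjusted p = 2.84e-07). In none of these did the groups overlap, and the G- cells stood within 1 log2 unit of d2. Zfp42 (Rex1), a zinc finger marker of naive cells, read 11.61, 12.07 and 11.27 in G- and 9.57, 9.41 and 9.34 in G+ cells (-2.21, SE 0.34, adjusted p = 3.31e-05). Tfcp2l1 differed by -2.59 (adjusted p = 5.87e-06). Zfp42 was not called with replicates 2 and 3 alone (adjusted p = 0.0101), nor Tfcp2l1 in a fit to the compared groups alone (adjusted p = 0.0135). Esrrb read 11.41, 11.51 and 10.17 in G- and 9.38, 8.57 and 7.18 in G+ cells (-2.65, SE 0.56, adjusted p = 0.00241). It lost the call without d3 G+ replicate 3 or d3 G- replicate 1 or 2 (adjusted p from 0.0171 to 0.0448), as did the germ cell and naive marker Dppa3 (-2.56, adjusted p = 0.00471) without d3 G+ replicate 2 or 3 or d3 G- replicate 1 or 2 (0.016 to 0.0448).

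Among the general genes, Sox2, a core factor of pluripotent and neural cells, read 10.37, 10.72 and 10.62 in G- and 7.90, 8.11 and 8.45 in G+ cells (-2.41, SE 0.25, adjusted p = 4.26e-08). Its partner Pou5f1 (Oct4) read 13.45, 13.80 and 13.67 in G- and 11.64, 12.71 and 12.95 in G+ cells. The groups did not overlap, but the difference of -1.21 (SE 0.63) did not pass (adjusted p = 0.465), the first G+ array being the lowest. Nanog, the third of the core factors, overlapped at 10.31, 10.42 and 10.55 against 9.32, 9.82 and 10.35 (-0.60, adjusted p = 0.582). Utf1, a chromatin factor of pluripotent cells, read 14, 14.58 and 14.15 in G- and 11.80, 10.74 and 10.35 in G+ cells (-3.28, SE 0.44, adjusted p = 4.36e-06). The adjoining SAP domain genes Dppa2 (-2.30, adjusted p = 2.4e-08) and Dppa4 (-2.61, adjusted p = 6.13e-08) were both lower, as was Fbxo15 (-1.94, adjusted p = 0.000393), which lost the call without d3 G- replicate 2 (adjusted p = 0.0102). Sall4 (0.60) and Lin28a (0.25) were not called.

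**Figure D4:**
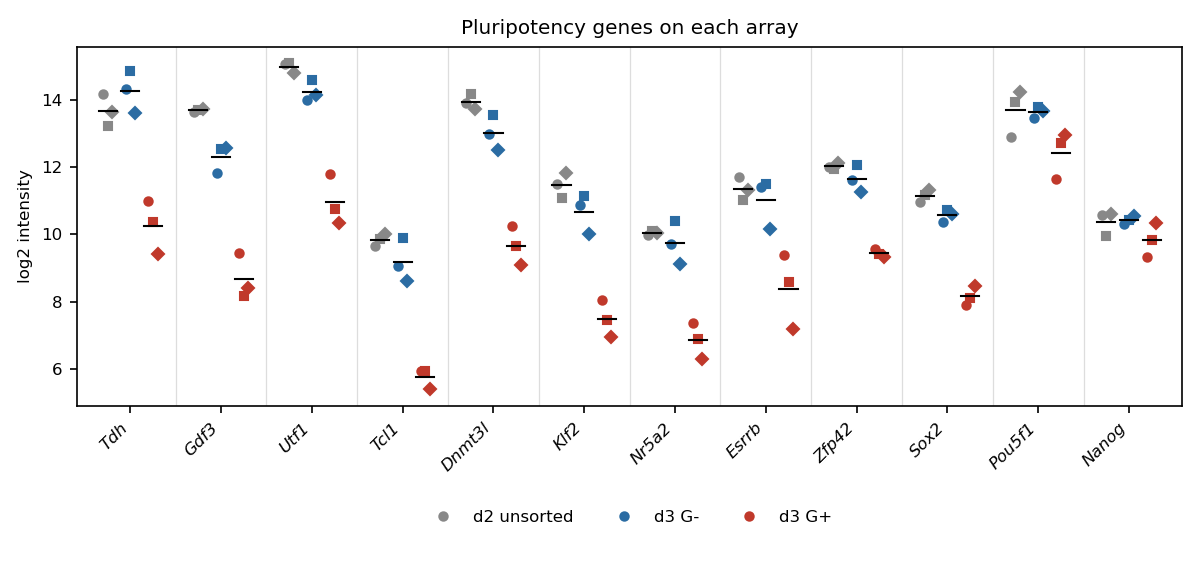
The log2 intensity of 12 genes linked to pluripotency on each array of d2 (grey), d3 G- (blue) and d3 G+ (red) cells, with replicates 1, 2 and 3 as circle, square and diamond and the mean as a black bar. Except for Nanog, every G+ array lies below every G- array, and Nanog overlaps between the populations.

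The windows of Sox2 (chr3:34649745-34650044, plus strand) and Zfp42 (chr8:43306960-43307259, minus strand), in GRCm38.p6, are shown because both genes were lower and both windows hold octamer letters (capitals), on the gene's strand in Sox2 and on the opposite strand in Zfp42.
Sox2: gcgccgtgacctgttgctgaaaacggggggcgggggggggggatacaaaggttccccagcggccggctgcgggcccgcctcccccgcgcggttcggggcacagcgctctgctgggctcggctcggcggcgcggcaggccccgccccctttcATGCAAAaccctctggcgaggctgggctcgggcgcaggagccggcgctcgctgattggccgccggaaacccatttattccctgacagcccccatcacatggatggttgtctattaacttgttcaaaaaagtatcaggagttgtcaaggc
Zfp42: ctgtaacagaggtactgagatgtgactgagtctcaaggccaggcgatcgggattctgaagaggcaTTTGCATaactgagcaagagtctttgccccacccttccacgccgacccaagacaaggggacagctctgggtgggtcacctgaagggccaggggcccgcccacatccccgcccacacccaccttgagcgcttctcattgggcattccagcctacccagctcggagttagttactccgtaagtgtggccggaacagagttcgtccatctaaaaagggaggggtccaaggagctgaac
Octamer letters were in 18 of the 165 windows of lower genes (10.9%), in 4 of 116 of higher genes (3.45%) and in 4.88% of the 16601 measured genes with a window. The bicoid type letters were in 10.3% of the windows of lower genes, 1.72% of higher genes and 7.57% of measured genes, and the T-box letters in 2.42%, 6.9% and 4.39%. The Esrrb letters were in 4.85%, 2.59% and 4.68%. These shares are descriptions of short letter runs and were not tested.

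Of 16 formative and primed epiblast genes 3 were lower and 0 higher (median -0.92). Pou3f1, a POU factor of the epiblast, read 11.38, 12.06 and 12.06 in G- and 10.25, 9.61 and 9.50 in G+ cells (-2.04, SE 0.43, adjusted p = 0.00212), and Tcf15 differed by -1.56 (adjusted p = 0.00595). The 2 calls were lost without d3 G+ replicate 2 or 3 or d3 G- replicate 2 or 3, with adjusted p from 0.0152 to 0.0194 for Pou3f1 and from 0.0254 to 0.0678 for Tcf15. Otx2 and Fgf5, also in this list, differed by 0.68 and 0.53. The neural progenitor list had 1 of 11 lower (Hes5) and 0 higher, with Sox1 at -0.02 and Sox3 at -1.31 (adjusted p = 1.58e-04, under the fold threshold).

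The lowest value of all belonged to Tdh, threonine dehydrogenase, the enzyme that lets mouse pluripotent cells break down threonine to glycine and acetyl-CoA. It read 14.32, 14.85 and 13.60 in G- and 11, 10.36 and 9.41 in G+ cells (-4.00, SE 0.39, adjusted p = 2.07e-08). The G- arrays were around the d2 mean of 13.68. In its list of threonine, glycine and serine enzymes, 1 of 14 was called and the median was -0.26, with Gldc at -0.63, Psat1 at -0.37 and Shmt2 at 0.40. Dnmt3l, the catalytically inactive partner of the de novo DNA methyltransferases, read 12.98, 13.56 and 12.51 in G- and 10.25, 9.65 and 9.10 in G+ cells (-3.35, SE 0.37, adjusted p = 1.97e-07). The catalytic enzymes Dnmt3b (-1.05, adjusted p = 0.00108) and Dnmt3a (-0.10, adjusted p = 0.999) were not called. Pdk1, a pyruvate dehydrogenase kinase, was the 1 of 23 glycolysis and hypoxia genes called (-2.37, adjusted p = 0.000538). In the basement membrane list 1 of 12 was called, Col18a1 (-1.77, adjusted p = 0.000664), which lost the call without d3 G+ replicate 2 or 3 (adjusted p = 0.0106 and 0.0113).

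The other genes among the 20 largest in each direction lay outside the lists. Higher in G+ cells were Klhl6 (4.23), Lmo1, a LIM-only transcription cofactor (4.18), the homeobox genes Six2 (4.09) and Vax1 (3.54), Prdm6, a regulator of smooth muscle genes (4.03), and Asb4 (3.77). Optc (4.26) and the pericyte gene Rgs5 (3.56) were well above background on 1 of the 3 G- arrays, and Optc was not called with replicates 2 and 3 alone (adjusted p = 0.0105). Lower in G+ cells were Cpsf4l (-3.50), Mymx, which encodes a muscle fusion peptide (-3.30), Bmerb1 (-3.28), Mcf2 (-3.02), Enpp3 (-3.02), Pde2a, a cyclic nucleotide phosphodiesterase (-3.0), Slc5a11 (-2.87) and the neurofilament gene Nefh (-2.83). Mymx on 2 and Mcf2 on 1 of the 3 G+ arrays were well above background. Enpp3 was the 1 of these 40 genes whose call was lost without a single array (d3 G+ replicate 2 or 3, d3 G- replicate 2 or 3, adjusted p from 0.0101 to 0.0208).

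Several of the lowest genes are known for expression in the germ line. Morc1 (-3.34), which silences transposons in male germ cells, the ribosomal protein paralogues Rpl10l (-3.33) and Rpl39l (-3.27), the piRNA pathway gene Tdrd12 (-3.02) and Mageb16 (-2.90) were among the 20 lowest. Mageb16 was not called in a fit to the compared groups alone (adjusted p = 0.0111). Morc1 read 9.39, 9.92 and 8.34 in G- and 6.53, 5.69 and 5.42 in G+ cells (SE 0.34, adjusted p = 3.82e-08). With others picked after their values were seen, Tex19.1 (-2.14), Syce1 (-2.18), Gtsf1l (-2.53), Tex14 (-1.95) and Zp3 (-2.16), these were lower in G+ cells. In the list of primordial germ cell genes 1 of 9 was lower (Dppa3), with a median of -0.84.

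A run of zinc finger genes that neighbour each other in GRCm38.p6, picked after their values were seen, was lower as well. The stretch was drawn from the first to the last of 10 genes already seen to be lower. It holds 55 genes, 14 of them protein coding, and 12 were measured. Of these 12, 10 were called lower and 0 higher, from -2.43 to -1.55, with a median of -1.68 over the 12. As the stretch was drawn around the called genes, this count is a description and no test. Zfp987 read 10.74, 10.71 and 10.71 in G- and 8.55, 8.01 and 8.29 in G+ cells (-2.43, SE 0.38, adjusted p = 4.37e-05). Rex2 read 9.96, 9.65 and 9.71 in G- and 7.38, 7.10 and 7.86 in G+ cells (-2.33, SE 0.37, adjusted p = 7.73e-05). Next to them the non-coding genes 1700095A21Rik (0.09) and 4933438K21Rik (-0.20) were not called. The zinc finger genes are close copies of each other, and how far their probes share signal was not tested.

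The lists for Hox genes (39), Polycomb subunits (27), cell cycle (22), immediate early and stress genes (14), reference genes (8) and 2-cell-like genes (5) each had 0 members called in either direction, with medians from -0.19 to 0.18. By limma, 22 of their 115 members had an unadjusted p under 0.05, as had 3980 of all 20957 gene symbols (19%). Among the 27 Polycomb subunits it was 9 (33.3%). The study's own lineage lists are given as counts only, since the sources used here do not say whether they were drawn up with these samples in view. There 6 of 11 mesendoderm genes, 7 of 21 mesoderm genes and 1 of 34 definitive endoderm genes (Cyp26a1) were higher, the 6 including Gsc. In the endoderm list 3 of 12 were higher (Gsc, Gata4 and Cfc1) and 1 was lower (Gdf3). Higher were also 2 of 11 trophoblast genes (Gata3 and Eomes) and 1 of 13 visceral endoderm genes (Bmp2). Of 23 pluripotency genes 8 were lower and 1 higher. Ectoderm had 1 of 11 lower (Tcf15), neurectoderm 1 of 7 lower (Sox2) and ecto-mesoderm 0 of 10 called.

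Both populations were also set against the unsorted d2 cells, from which more genes differed in G+ than in G- cells. Against d2, G+ cells had 679 genes higher (3.06%) and 598 lower (2.69%), and G- cells 227 higher (1.02%) and 60 lower (0.27%). The comparisons share the d2 arrays, and share the d3 arrays with the comparison of the populations, so the counts are given side by side only. Of the 160 genes higher in G+ than in G- cells, 147 were called above d2 in G+ cells and 23 above d2 in G- cells. Their median difference from d2 was 2.80 in G+ and 0.57 in G- cells. Of the 233 lower genes, 215 were called below d2 in G+ cells and 8 in G- cells, with medians of -2.43 and -0.55. With the arrays of replicates 2 and 3 alone and slide as a fixed block, 165 genes were higher and 273 lower. Only 19 of these higher genes were called above d2 and 27 of these lower genes below d2 in G+ cells. In that fit no d2 array shared a slide with a d3 array, so its comparison with d2 was indirect. For the lower genes, the median intensity was 9.77 at d2, 9.24 in G- and 7.21 in G+ cells.

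The d4 populations, which share no arrays with d3, gave 187 genes higher (0.842%) and 323 lower (1.45%) in G+ than in G- cells. The 109 genes called higher on both days were 68.1% of the d3 list and 58.3% of the d4 list. The 161 genes called lower on both days were 69.1% of the d3 list and 49.8% of the d4 list, and 0 genes were called in opposite directions. Mesp1 had a d4 difference of 3.21, Fgf10 of 3.82, Gata6 of 3.51, Tdh of -4.89 and Gdf3 of -4.36. The change in the G+ minus G- difference from d3 to d4 was tested directly with limma and 0 genes were called, while 930 of 28066 RefSeq probes had an unadjusted p under 0.05. Thus differences that look unlike on the 2 days, such as Tbx6 (2.20 and 0.76), Frzb (4.05 and 2.15) and T (0.31 and -1.17), were not shown to differ.

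**Figure D5:**
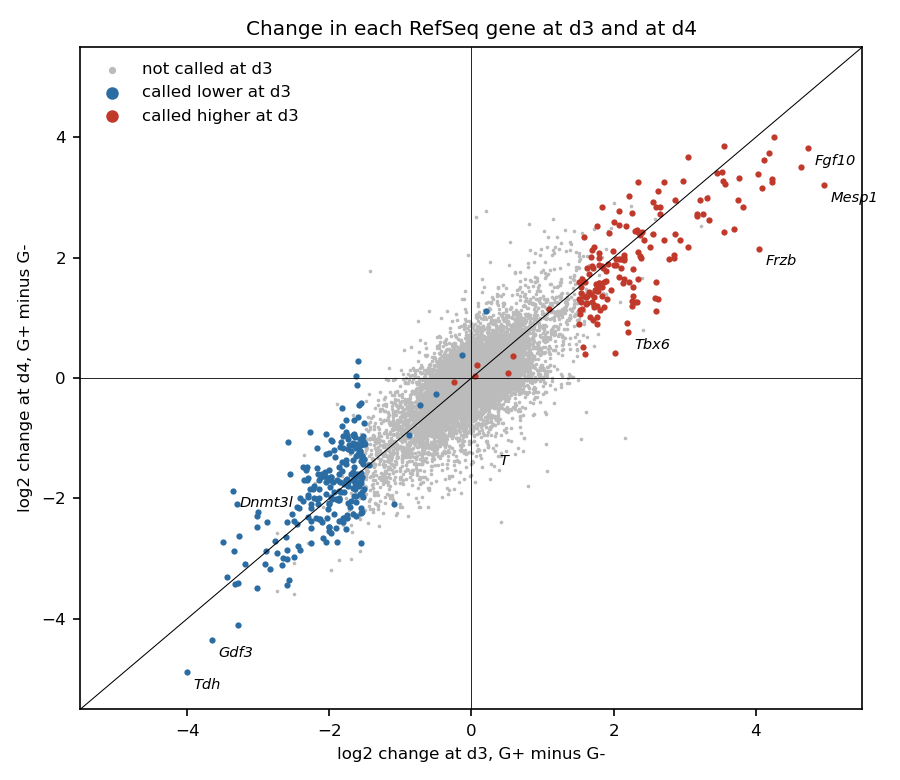
The log2 difference between G+ and G- cells at d3 (horizontal axis) and at d4 (vertical axis) for each RefSeq gene, red where called higher and blue where called lower at d3, with the diagonal marking equal differences. Of the 160 higher genes 159 and of the 233 lower genes 229 have the same sign at d4. Coloured points near 0 at d3 are genes whose call rests on another probe than the one drawn.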

How the data were processed

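RNA of mESCs, d2 cells, sorted d3 to d6 populations and inhibitor-treated d6 cultures was measured on 42 Agilent one-colour arrays of 14 groups with 3 arrays each. The authors deposited the scanner intensity of each spot for every array (median foreground and background) and 1 table of log2 intensity, corrected by normexp and quantile normalised. From the scanner files, marked outlier spots were dropped and the remaining spots of each probe were averaged. Normexp (offset 10, limma 3.58.1 in R 4.3.3) then removed background. Control probes were dropped, and log2 values were quantile normalised over all arrays (55681 probes). Array by array, correlation between recomputed and deposited log2 intensity was never below 0.999979.

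One mean per group was fitted over all 42 arrays with limma, with Benjamini-Hochberg adjustment over all probes. A gene is a RefSeq accession (28066 probes carry 22201, of which 21850 have a symbol from a RefSeq table of GRCm38.p6) with at least 1 probe past both thresholds. A gene with several probes is shown by its brightest, judged by the mean of all arrays, and for 16 called symbols that is not the called probe. With 3 arrays per group, the number of arrays limits the precision, and an exact permutation test of 3 against 3 gives no p under 0.1. Gene lists were counted by symbol, as were the shares of genes whose groups did not overlap (20957 symbols). Lists and genes were chosen with earlier results of these data known. The genes named are Gsc, the 20 with the largest change in each direction among called genes whose groups do not overlap, called members of each list and, with their values, members not called that define it.

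Same-numbered G- and G+ arrays deviated together from their group means (correlations of 0.30, 0.25 and 0.68, against -0.46 to 0.14 for other numbers). Replicates 2 and replicates 3 each shared a slide, so pairing by number and by slide cannot be told apart there. Replicates 1 (0.30) lay on different slides. The alternatives were other background corrections and scalings, the deposited table, a filter on dim probes, fewer arrays, slide or replicate number as a block, another p threshold, 1 probe per gene, leaving out each array and, added after the data were seen, counting by symbol.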

Additional observations from a re-analysis of the deposited data

How the results depend on the processing

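The counts of 160 higher and 233 lower genes ran from 116 to 174 and from 157 to 305 when each array was left out. The counts of genes called in each such fit that were also above or below d2 in G+ cells ran from 108 to 162 and from 148 to 260. The change from d3 to d4 stayed at 0 calls. An offset of 50 gave 148 lower genes, 130 of them also below d2. A fit to the compared groups alone gave 138 lower genes. With replicates 2 and 3 alone and slide as a block, 19 of 165 higher genes were also above d2 and 27 of 273 lower genes also below d2. The d2 and d3 arrays of that fit shared no slide. In it 1 gene was called in the change from d3 to d4. The replicate block gave 179 higher and 240 lower genes. Of the 105 genes followed by name it added the calls of Fn1, Foxf1, Hand1 and Msx2 and changed no other call. Scaling to the 75th percentile gave 191 higher and 301 lower genes, slide as a fixed block 193 and 242, and symbols in place of accessions 153 and 226.

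Of 76 called genes followed by name, 58 kept the call without each array. The fit to the compared groups alone lost 17 of the 76, with adjusted p from 0.0111 to 0.205: Bmp2, Col18a1, Cxcl12, Cxcr4, Dppa3, Eomes, Esrrb, Fbxo15, Fzd1, Hes5, Id1, Itga5, Mageb16, Rhox5, Tbx6, Tcf15 and Tfcp2l1. That fit also added the calls of Foxf1 (adjusted p = 0.00299) and Hand1 (adjusted p = 0.00308). An offset of 50 lost Fzd1, Gata2, Hes5, Itga5 and Nrarp. Scaling to the 75th percentile lost Enpp3, Gata2, Id1, Rhox5 and Tcf15 and added Cer1 and Twist1. Replicates 2 and 3 alone lost Fbxo15, Gata2, Id1, Optc, Rhox5, Wnt5a and Zfp42. The sign turned only in genes close to 0: the brighter Kdr probe without d3 G+ replicate 3 (-0.05) or d3 G- replicate 2 (-0.14), and Wnt3a without d3 G+ replicate 1 (-0.11) or d3 G- replicate 2 (-0.26). Their ranges without 1 array reached 0.25 and 0.52. The cause was not tested. Probes near background limit the fold of dim genes.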

Other observations

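Genes of heart and smooth muscle, picked after their values were seen, were called in both directions. Nfatc1, a transcription factor of the endocardium, read 7.11, 6.34 and 6.66 in d3 G- and 8.63, 9.19 and 9.41 in d3 G+ cells (2.37, SE 0.36, adjusted p = 2.74e-05). The GATA cofactor Zfpm1 (2.27, adjusted p = 5.51e-06), the receptor Pdgfrb, which is in the study's mesoderm list (2.37, adjusted p = 0.00159) and the atrial light chain gene Myl4 (2.66, adjusted p = 0.00314) were also higher in G+ cells. The cardiac myosin heavy chain gene Myh6 was lower, at 9.15, 9.56 and 9.46 in G- and 7.22, 7.32 and 7.12 in G+ cells (-2.17, SE 0.37, adjusted p = 0.000198). Of genes that carry or process signals, the BMP effector Smad1 (1.71, adjusted p = 3.66e-06), the proprotein convertase Pcsk5 (2.97, adjusted p = 0.000439) and the Wnt effector Frat1 (2.13, adjusted p = 1.73e-06) were higher in G+ cells.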
